A study of Arabidopsis thaliana with 36 samples.

Results

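Alternative splice sites are pairs of neighbouring sites at 1 end of an intron, of which either can be used, and the stretch between them is exon in some transcripts and intron in others. The regions described here are the rows of 12 deposited splicing tables whose event is an alternative 5' splice site (the donor, at the start of an intron) or an alternative 3' splice site (the acceptor, at its end), with or without the asterisk that the tables add to some events. The rule found 770 regions among the 56407 regions of the 12 tables. They comprise 281 regions of 5' sites in 154 distinct stretches, called bins, and 489 regions of 3' sites in 213 distinct bins, in 333 loci.

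RNA depleted of ribosomal RNA was sequenced from whole seedlings of Arabidopsis thaliana in 36 libraries, 3 in each of 12 groups, with reads of 150 bases. The 6 genotypes were wild type (WT, Col-0), the single mutant swap1 (the labels name the allele swap1-1, in Col-0), the triple mutant swap1sfpsrrc1 and the 3 double mutants within it, swap1sfps, swap1rrc1 and sfpsrrc1. The labels used here name no allele of sfps or rrc1 and do not say whether a mutant was backcrossed. Seeds were chilled in the dark and given 3 h of white light to start germination, and the seedlings were dark-grown for 4 days. They then stayed dark or received continuous red light (fluence rate 7 µmol m-2 s-1) for 3 h, so that every group shares the white light pulse and the dark growth. SWAP1, SFPS and RRC1 are splicing factors, and the comparisons ask how red light and the loss of these factors change splicing. Whether the 3 libraries of each group stem from separate batches of seedlings is not said in the labels, and the deposited FDR then measures only the spread between these libraries. No value of a single library was analysed, so the depth behind each value is unknown.

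As background, the U1 particle of the spliceosome pairs with the donor, whereas the acceptor is recognised through a pyrimidine-rich tract and the AG that ends the intron, by the U2AF dimer. Proteins with SWAP or SURP domains, SR proteins and other factors that bind pre-mRNA shift the choice between nearby sites. In plants most alternative splicing is intron retention, and shifts of a few bases at donors and acceptors are common beside it.

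Each bin has 1 log2 fold change per table, of its coverage relative to that of its gene, as red light over dark or as the genotype with more mutations over the other. For a 5' bin, a higher value means more reads over the stretch between the upstream and the downstream donor, which arises when the downstream donor is used or the whole intron is retained. For a 3' bin, a higher value means more reads between the upstream and the downstream acceptor, from use of the upstream acceptor or from retention. A call is the authors' FDR from ASpli, and each FDR below is that value. The fold of a bin carries no deposited error.

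The following sequences, 12 bins in coding sequence, show what is gained or lost when the site shifts, and were read from the RefSeq copy of the reference (TAIR10.1). Each line runs 5′ to 3′ on the gene's strand, with the bin in capitals and 12 bases on either side in lower case. In the 7 bins of 3' sites the lower-case bases before the capitals are intron and those after are exon, so that both acceptors end in AG, at the last lower-case bases before the capitals and at the last capitals.
AT1G18070 (chr1:6215345-6215377, minus strand): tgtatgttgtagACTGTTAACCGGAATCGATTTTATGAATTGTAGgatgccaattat
AT5G38520 (chr5:15422477-15422512, plus strand): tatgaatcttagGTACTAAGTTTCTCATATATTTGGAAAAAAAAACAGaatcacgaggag
AT1G10590 (chr1:3503005-3503049, minus strand): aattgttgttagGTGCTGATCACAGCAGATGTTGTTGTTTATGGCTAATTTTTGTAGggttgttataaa
UGT88A1 (chr3:5618827-5618851, minus strand): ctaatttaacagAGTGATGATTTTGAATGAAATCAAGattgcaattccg
HCF109 (chr5:14236388-14236406, minus strand): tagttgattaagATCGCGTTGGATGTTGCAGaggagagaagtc
GSTZ1 (chr2:629518-629538, plus strand): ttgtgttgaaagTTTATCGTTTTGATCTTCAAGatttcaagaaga
LHY (chr1:35964-35999, minus strand): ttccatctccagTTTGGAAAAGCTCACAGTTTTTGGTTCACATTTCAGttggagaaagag

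In the 5 bins of 5' sites below, the lower-case bases before the capitals are exon and those after are intron, and both donors start with GT, at the first capitals and at the first lower-case bases after them.
PBL1 (chr3:20558160-20558207, plus strand): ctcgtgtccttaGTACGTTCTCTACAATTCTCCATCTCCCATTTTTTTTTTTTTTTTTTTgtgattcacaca
AT5G53050 (chr5:21511418-21511425, minus strand): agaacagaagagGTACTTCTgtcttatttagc
AT2G47690 (chr2:19551518-19551521, plus strand): cattccaaagagGTAGgtacccacttct
NRPC1 (chr5:24174552-24174581, plus strand): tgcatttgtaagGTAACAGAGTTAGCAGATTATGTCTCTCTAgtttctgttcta
SECA2 (chr1:7600018-7600029, minus strand): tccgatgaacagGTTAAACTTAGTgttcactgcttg

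Sites of the 2 kinds differed in number and in direction between the comparisons. Members were called in 8 of the 12 comparisons, where they made up 1.66% to 2.82% of the called bins. The tables list only called bins, so the background for a direction is the share of all called bins of a table, mostly introns, that was higher. That share was 28.4% for light in WT, 67.4% for light in swap1, 81.8% for swap1 over WT in the dark and 91.7% under red light, 82.4% and 91.3% for the triple mutant over WT, and 79.9% and 82.0% for the triple mutant over sfpsrrc1. Exon bins called as neither kind of site were higher in 35.1% and 53.2% of cases for light in WT and in swap1, in 49.2% and 52.7% for swap1 over WT, and in 46.4% and 61.6% for the triple mutant over WT (dark, then red light).

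Red light changed few of these sites in WT. Of 15 bins of 5' sites 3 were higher and 12 lower in red light, 20% higher beside 28.4% of all called bins, and of 12 bins of 3' sites 7 were higher and 5 lower. In swap1 the 5' bins were more numerous and mostly higher in red light, 25 of 35 or 71.4% beside a background of 67.4%. The 3' bins of swap1 were 4 higher and 6 lower. The median log2 fold change of the 5' bins was -0.73 in WT and 0.64 in swap1, over lists of which 8 bins are shared. The ratio of 3' to 5' bins was 0.8 in WT and 0.286 in swap1.

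In swap1 over WT more 3' than 5' bins were called, most clearly in the dark. The annotation itself holds 4976 alternative acceptor pairs and 4264 donor pairs, and 3351 and 1854 below a length of 100 bases. In the dark, 80 bins of 3' sites were called beside 26 of 5' sites, a ratio of 3.08, and 69 of the 80 were higher in swap1, 86.2% beside 81.8% of all called bins. The 26 bins of 5' sites went mostly the other way, with 8 higher and 18 lower in swap1, 30.8% higher (95% Wilson interval 16.5% to 50.0%, which covers counting error only). In red light 115 bins of 3' sites were called, 93 higher and 22 lower in swap1. The 5' bins numbered 81 in red light, 64 higher and 17 lower, 79.0% (68.9% to 86.5%) beside 91.7% of all called bins. The ratio of 3' to 5' bins in red light was 1.42. The median log2 fold change of 5' bins was thus -0.66 in the dark and 0.71 under red light, whereas that of 3' bins was 0.77 and 0.70. The difference between the shares was not tested, since bins of 1 table share their libraries and are not replicates.

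The triple mutant was compared with the same WT libraries, so its values stand beside those of swap1 and are not independent of them. In the dark 18 of 39 bins of 5' sites were higher, 46.2% beside 82.4% of all called bins, and 96 of 115 bins of 3' sites, 83.5%. In red light 62 of 77 bins of 5' sites were higher, 80.5% beside 91.3%, and 107 of 140 bins of 3' sites, 76.4%. Medians of the 5' bins were -0.55 in the dark and 0.76 under red light, and those of the 3' bins 0.75 in both. The ratio of 3' to 5' bins was 2.95 in the dark and 1.82 under red light.

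**Figure D1:**
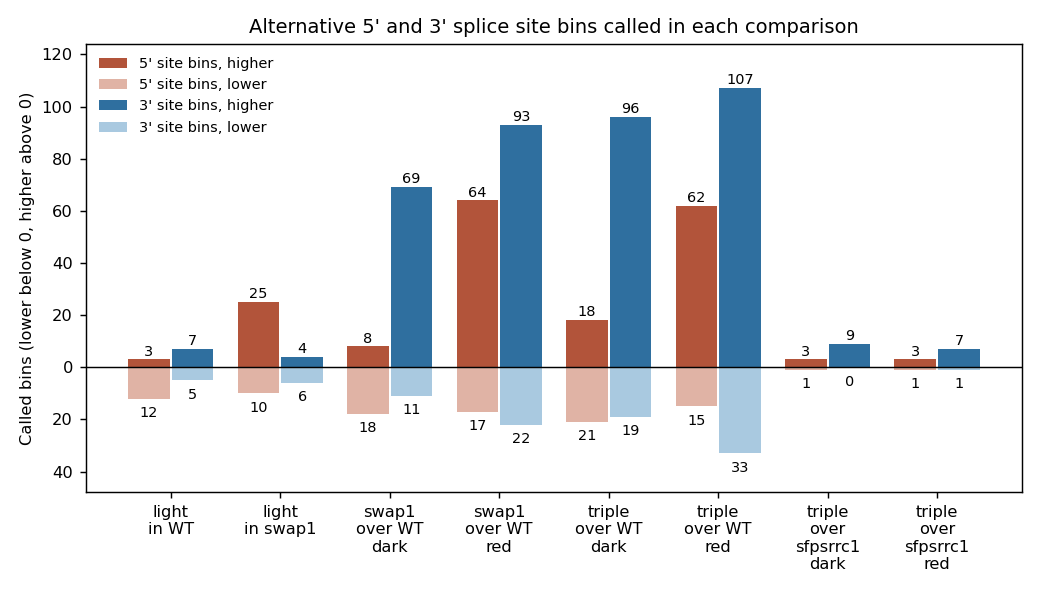
Number of called bins in each of the 8 comparisons with members, with bins of higher relative coverage above 0 and of lower coverage below 0, for 5' sites (brown) and 3' sites (blue). The 5' bins are mostly lower for light in WT (12 of 15) and for swap1 over WT in the dark (18 of 26) and mostly higher in red light (64 of 81), and the 3' bins are mostly higher in all comparisons except light in swap1.

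**Figure D2:**
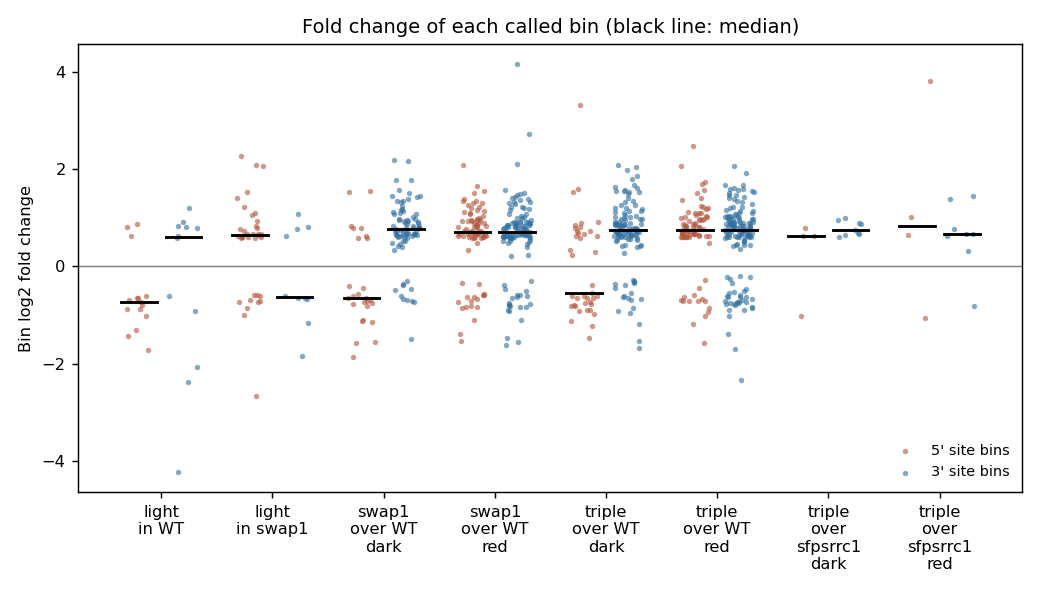
Log2 fold change of each called bin (points) by comparison and kind of site, with the median as a black line. The gap around 0 reflects that only called bins are listed. Medians of 5' bins lie at -0.73, -0.66 and -0.55 for light in WT and for swap1 and the triple mutant over WT in the dark, and above 0 elsewhere.

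The dark and red light tables of a genotype pair share no library, so that the same bin can be compared between them. For swap1 over WT, 62 bins of 3' sites were called in both, 77.5% of the dark list and 53.9% of the red list. All 62 had the same direction, 52 higher and 10 lower, with a median absolute difference of 0.1 log2 units. Of the 5' bins 11 were shared, 42.3% of the dark list and 13.6% of the red list. Among these 3 were higher in both, 5 lower in both, and 3 lower in the dark but higher in red light. Over all called bins 1512 were shared, 40.2% of the dark and 17.5% of the red list, and 4.5% of these had opposite directions. Of the 70 bins of 5' sites called only in red light, 58 were higher in swap1, and of the 15 called only in the dark, 5 were. For the triple mutant over WT, 73 bins of 3' sites were shared (63.5% and 52.1% of the lists), all with the same direction, and 13 bins of 5' sites (33.3% and 16.9%), 1 with opposite directions. Over all called bins 41.3% and 25.1% were shared, 2.66% of these with opposite directions. A bin called in 1 light condition only is not shown to differ between them, since the difference was not tested for bins.

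**Figure D3:**
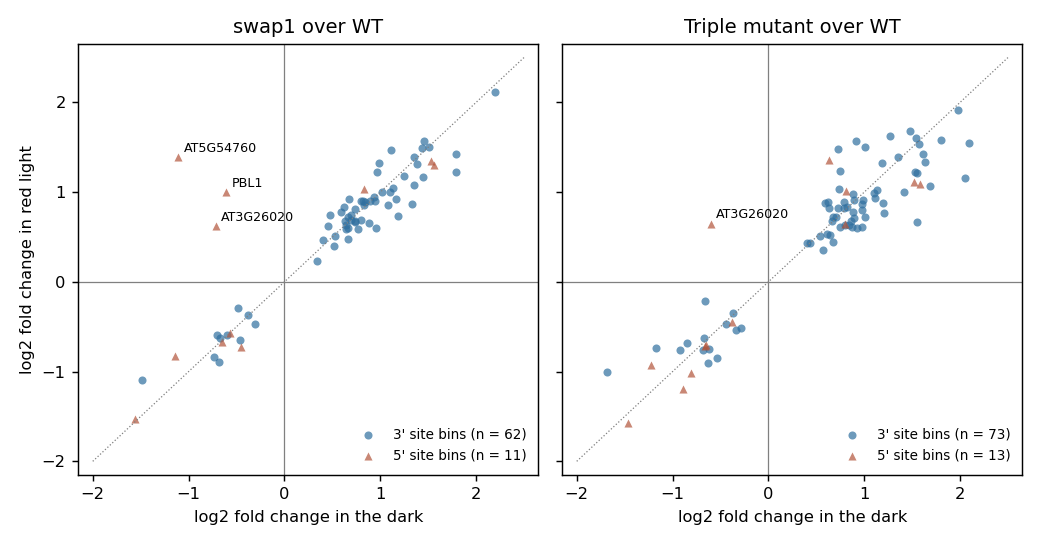
Log2 fold change in red light against that in the dark for bins called in both, for swap1 over WT (left) and the triple mutant over WT (right), with 3' sites as circles and 5' sites as triangles. All 3' bins lie in the quadrants of equal sign, and the named 5' bins lie in the quadrant lower in the dark and higher in red light.

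The 3' sites called in the most comparisons were higher wherever they were called. The largest value among them belonged to AT1G18070, a gene annotated in the EF1A and IF2-gamma family of translation factors, whose bin of 33 bases (E011) is shown first above. For swap1 over WT the authors' deposited tables give 2.20 in the dark (FDR 3.04e-95) and 2.11 under red light (FDR 1.70e-67). In the authors' deposited tables of the triple mutant the same bin was at 1.98 and 1.92 over WT and at 0.87 and 0.66 over sfpsrrc1. The bin was thus higher in all 6 comparisons of a group that carries swap1 with one that does not. The 2 values over sfpsrrc1 were the smallest of the 6.

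The same 6 comparisons called the bins of 2 other genes of the printed set. AT1G10590, a protein with an OB fold that binds nucleic acids, has a bin of 45 bases (E004) that was at 1.35 and 1.08 in swap1 over WT, 1.55 and 1.21 in the triple mutant over WT, and 0.99 and 0.67 over sfpsrrc1 in the authors' deposited tables (dark, then red light). AT5G38520, of the alpha/beta-hydrolase family, has a bin of 36 bases (E004) at 0.95, 0.90, 1.52, 1.22, 0.96 and 0.63 in the same order in the authors' deposited tables. Both bins, like that of AT1G18070, have a length divisible by 3 and thus keep the reading frame by length. Each of these bins also contains a stop triplet (TAA, TAG or TGA) in at least 1 frame. The frame in which the bins are read was not determined, so whether translation runs through them is not known.

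HBP5, a heme-binding protein of the SOUL family, was called at its bin of 70 bases (E003, chr5:6799092-6799161) in 5 comparisons. Its values in the authors' deposited tables were 1.11 and 1.47 in swap1 over WT, 1.27 and 1.62 in the triple mutant over WT, and 0.33 in the triple mutant over sfpsrrc1 in red light. HCF109, the plastid peptide release factor that ends translation at UGA codons, had its bin of 19 bases (E002) at 1.78 and 1.42 in swap1 over WT and 2.09 and 1.55 in the triple mutant in the authors' deposited tables. UGT88A1, a glucosyltransferase, was called for light too: its bin of 25 bases (E003) was at 0.82 for light in WT, and at 1.33, 0.87, 1.68 and 1.07 in the 4 comparisons of a mutant with WT in the authors' deposited tables. The bins of HCF109 and UGT88A1 are not divisible by 3.

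Other 3' bins were among the 2 largest changes of a comparison. For AT4G20325, subunit B of ribonuclease H2, the bin of 155 bases (E008) was at 1.43, 1.49, 1.19 and 1.33 over WT and at 1.45 in the triple mutant over sfpsrrc1 in red light in the authors' deposited tables. AT4G17470 (E009, in the 5' UTR) was at 1.45, 1.17, 2.05 and 1.16 over WT in the authors' deposited tables. CHY1, a peroxisomal hydrolase of valine breakdown, was lower at its bin of 11 bases (E003), at -1.61 in swap1 over WT in red light, -1.69 in the triple mutant over WT in red light and -1.16 for light in swap1 in the authors' deposited tables. AT1G29830, a transporter of the CorA family, was at -2.33 in the triple mutant over WT in red light, the lowest value of a 3' bin over WT in the authors' deposited tables. AT1G24735 (2.16 in swap1 over WT in the dark), AT1G16705 (2.07 in the triple mutant over WT in red light) and NRP1 (1.39 in the triple mutant over sfpsrrc1 in red light) were each called in that authors' deposited table only.

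The 2 largest light changes of 3' sites in WT also appear in red light between genotypes. ZCF125, annotated as a P-loop nucleoside triphosphate hydrolase, was at -4.23 for light in WT and at 4.16 in swap1 over WT in red light in the authors' deposited tables. ATLP-1, of the thaumatin family, was at -2.38 and 2.73 in the same pair of the authors' deposited tables, at a bin of 3 bases. Both comparisons use the WT libraries in red light, so the paired values are not independent. Neither gene was called in swap1 over WT in the dark or for light in swap1.

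LHY, the MYB-like transcription factor of the morning loop of the circadian clock, was the only clock locus with a member. Its bin of 36 bases (E009) was at -2.08 for light in WT (FDR 1.81e-11) and -1.84 for light in swap1 (FDR 1.87e-05) in the authors' deposited tables. It was called in no comparison between genotypes. The intron beside it was also called for light in WT, at -2.30 in the authors' deposited table.

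**Figure D4:**
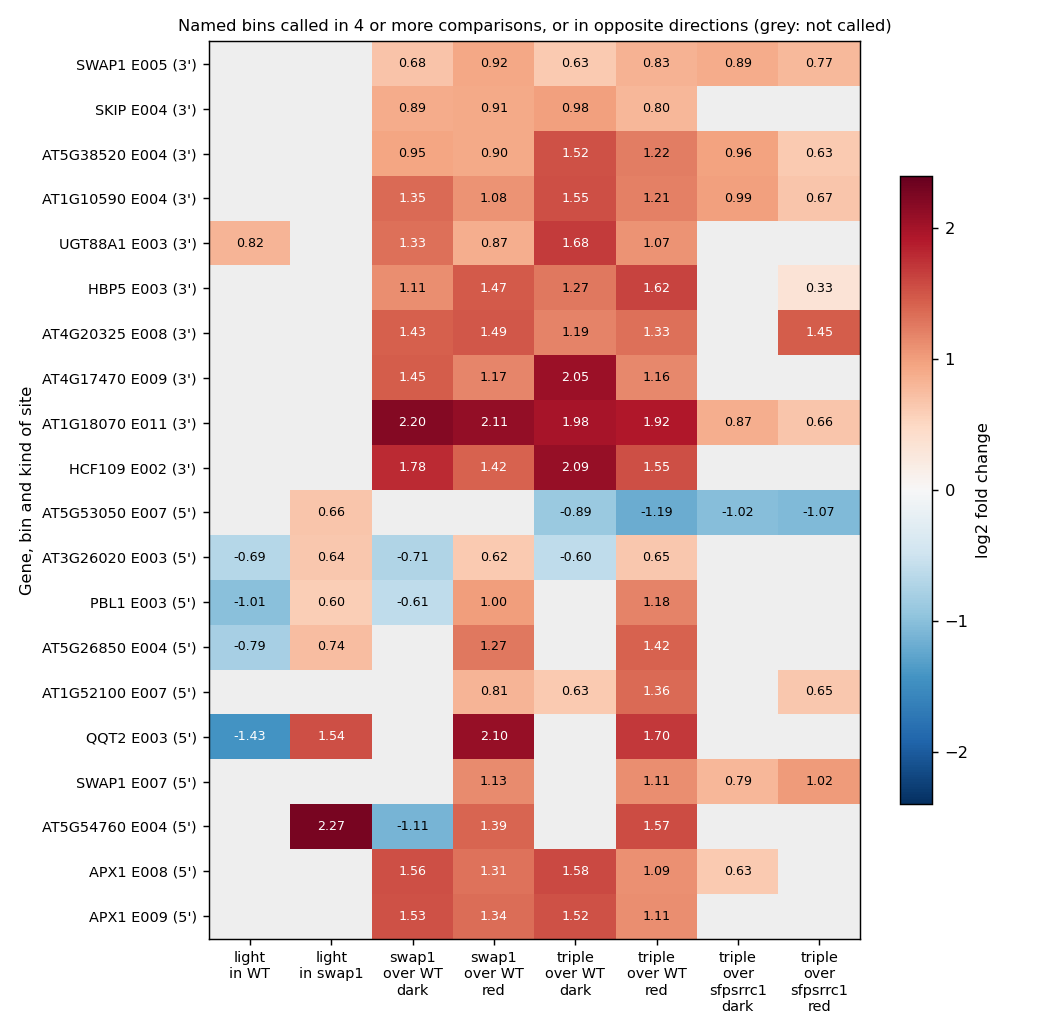
Log2 fold change of 20 named bins in the 8 comparisons, for 10 bins of 3' sites (upper rows) and 10 of 5' sites (lower rows), with grey where the bin was not called. The 3' bins are higher wherever they are called, and among the 5' bins AT3G26020, PBL1 and AT5G54760 are lower in the dark and higher in red light in swap1 over WT.

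Between light in WT and light in swap1, or between the dark and red light tables of a genotype pair, 5 bins of 5' sites and 0 of 3' sites were called in opposite directions. The light tables shared 8 bins of 5' sites, 4 of them with opposite directions, and only 4 bins of 3' sites, 0 of them opposite. Over all called bins, 34.3% of the 508 shared between the light tables had opposite directions. Other pairs of comparisons were not searched for such bins. The light tables and the swap1 over WT tables compare the same groups of WT and swap1 libraries. A bin with opposite directions in both pairs therefore shows 1 result and not separate ones. AT3G26020 encodes a regulatory B subunit of protein phosphatase 2A, and its bin lies in the 5' UTR (E003, 89 bases, chr3:9513855-9513943). The authors' deposited tables give -0.69 for light in WT (FDR 3.02e-05) and 0.64 for light in swap1 (FDR 0.000772). In swap1 over WT it was at -0.71 in the dark and 0.62 under red light, and in the triple mutant over WT at -0.60 and 0.65, in the authors' deposited tables. It was called in 6 comparisons, the most for a 5' bin.

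PBL1, a receptor-like cytoplasmic kinase of plant immunity, has its bin of 48 bases (E003) in coding sequence. For light it was at -1.01 in WT and 0.60 in swap1 in the authors' deposited tables. Between genotypes it was at -0.61 in the dark and 1.00 under red light in swap1 over WT, and at 1.18 in the triple mutant over WT in red light, in the authors' deposited tables. The dark value of PBL1 is near the threshold, with an FDR of 0.045 in the authors' deposited table.

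QQT2, a P-loop protein needed for early embryo divisions, was at -1.43 for light in WT and 1.54 for light in swap1 in the authors' deposited tables, at a bin of 94 bases in the 5' UTR. In red light it was at 2.10 in swap1 over WT and 1.70 in the triple mutant over WT in the authors' deposited tables. AT5G26850, an uncharacterized protein chosen after its values were seen, was at -0.79 and 0.74 for light and at 1.27 and 1.42 over WT in red light in the authors' deposited tables. AT5G54760, a translation initiation factor of the SUI1 family, was at -1.11 in the dark and 1.39 under red light for swap1 over WT in the authors' deposited tables. For light in swap1 it had the highest value of all members in that comparison, 2.27 in the authors' deposited table.

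Some other 5' bins that were lower for light in WT were higher over WT in red light, in comparisons that share the WT libraries in red light. SMB, a NAC transcription factor of the root cap, was at -1.72 for light in WT and at 1.66 and 2.06 in swap1 and the triple mutant over WT in the authors' deposited tables. AIRP1, a RING-type ubiquitin ligase of the abscisic acid response, was at -1.31, 1.34 and 1.19, and MSL2, a mechanosensitive channel of the plastid envelope, at -0.87, 0.90 and 0.81 in the same authors' deposited tables. The last 2 genes fall outside the rule for named genes and were chosen after their values were seen.

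Other 5' bins had 1 direction over WT in the tables that called them. APX1, the cytosolic ascorbate peroxidase that removes hydrogen peroxide, has 2 neighbouring bins in the 5' UTR (E008 and E009, 10 and 82 bases, chr1:2437742-2437833). E008 was at 1.56 and 1.31 in swap1 over WT, 1.58 and 1.09 in the triple mutant over WT and 0.63 in the triple mutant over sfpsrrc1 in the dark, in the authors' deposited tables. E009 was at 1.53, 1.34, 1.52 and 1.11 over WT in the authors' deposited tables, and the 2 bins can share reads. AT1G52100, a mannose-binding lectin family protein, was at 0.81 in swap1 over WT in red light and at 0.63 and 1.36 in the triple mutant over WT in the authors' deposited tables. AT2G47690, an NADH-ubiquinone oxidoreductase-like protein chosen after its values were seen, was lower at a bin of 4 bases, at -1.56 and -1.53 in swap1 over WT and -1.47 and -1.57 in the triple mutant in the authors' deposited tables.

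AT5G53050, of the alpha/beta-hydrolase family, was the 5' bin most often lower in the triple mutant. Its bin of 8 bases (E007) was at -0.89 and -1.19 over WT and at -1.02 and -1.07 over sfpsrrc1 in the authors' deposited tables, and at 0.66 for light in swap1, which shares no library with the triple mutant over WT. It was not called in swap1 over WT.

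Some named 5' bins were called in 1 or 2 comparisons. AGO4, an Argonaute protein of RNA-directed DNA methylation, was at -1.57 in swap1 over WT in the dark and at 2.08 for light in swap1 in the authors' deposited tables, which share the dark swap1 libraries. NRPC1, the largest subunit of RNA polymerase III, was at -1.86 in swap1 over WT in the dark (FDR 0.00917) in the authors' deposited table. In that comparison its transcripts with and without the bin were both higher, at 1.06 and 0.91 in the authors' deposited table. SECA2, the motor of a plastid protein translocase, was at -2.67 for light in swap1 (FDR 0.00733) in the authors' deposited table. In the authors' deposited tables of the triple mutant, PLP5, a patatin-like protein, was at 3.31 over WT in the dark, AT3G23480, a cyclopropane-fatty-acyl-phospholipid synthase, at 2.48 over WT in red light, and AT4G25090 at 3.82 over sfpsrrc1 in red light. These 3 values had FDR between 0.00583 and 0.00674 in the authors' deposited tables, and they were the largest of their comparisons.

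Adding swap1 to sfpsrrc1 gave few members, and adding sfps or rrc1 to the other doubles gave none. In the triple mutant over sfpsrrc1, 3 of 4 bins of 5' sites and 9 of 9 bins of 3' sites were higher in the dark, beside 79.9% of all called bins, and 3 of 4 and 7 of 8 in red light, beside 82.0%. Between the dark and red light lists 2 bins of 5' sites and 4 of 3' sites were shared, each with the same direction. In the triple mutant over swap1sfps 0 members were among the 34 called bins in the dark and the 40 under red light, and over swap1rrc1 0 among 104 and 43. These 4 tables hold few called bins of any class, and the authors' calls are the only test available.

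The SWAP1 gene itself (AT4G31200) held 2 member bins in the 5' UTR, both higher in each of their 10 regions. Its 3' bin (E005, 30 bases, chr4:15164588-15164617) was at 0.68, 0.92, 0.63, 0.83, 0.89 and 0.77 in the 6 comparisons that differ in swap1, in the authors' deposited tables. Its 5' bin (E007, 17 bases, chr4:15164832-15164848) was at 1.13 and 1.11 over WT in red light and at 0.79 and 1.02 over sfpsrrc1 in the authors' deposited tables. These regions lie in the mutated gene, and leaving them out moved no count of a comparison by over 1.5 times.

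Introns beside the member bins were called too in a share of cases that varied between comparisons. In swap1 over WT in red light an intron called in the same direction stood beside 36 of 64 higher 5' bins (56.2%) and 20 of 93 higher 3' bins (21.5%). In the triple mutant over WT in red light it held for 41 of 62 (66.1%) and 34 of 107 (31.8%). In the dark it held for 6 of 8 higher 5' bins (75%) and 10 of 69 higher 3' bins (14.5%) in swap1 over WT, and for 10 of 18 (55.6%) and 19 of 96 (19.8%) in the triple mutant over WT. Of the lower 5' bins in the dark it held for 3 of 18 in swap1 and 3 of 21 in the triple mutant. Of the lower bins in red light it held for 1 of 17 and 1 of 22 in swap1 and for 1 of 15 and 2 of 33 in the triple mutant. An intron called in the opposite direction stood beside 3 and 2 of these lower bins in swap1 and 4 and 4 in the triple mutant. Beside the higher bins in red light these were 1 and 1, and 0 and 2. Of all called bins in these tables, mostly introns, 91.7% and 91.3% were higher, so a called lower intron is rare beside any bin. For light the order was another: it held for 0 of 3 higher and 6 of 12 lower 5' bins in WT, and for 8 of 25 higher (32%) and 5 of 10 lower 5' bins in swap1. Without the bins whose intron was called in the same direction, an alternative chosen after seeing the data, 11.8% of 17 bins of 5' sites were higher in the dark and 63.6% of 44 in red light in swap1 over WT. This leaves out mainly higher bins, 6 higher and 3 lower in the dark and 36 higher and 1 lower in red light.

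The share of 5' bins in coding sequence differed between higher and lower bins, in an order that changed between comparisons and was not tested. In swap1 over WT in red light, 25 of 64 higher 5' bins (39.1%) and 14 of 17 lower ones (82.4%) lay in coding sequence. For light in swap1 these were 4 of 25 higher (16%) and 9 of 10 lower (90%). In swap1 over WT in the dark they were 6 of 8 higher (75%) and 4 of 18 lower (22.2%). In the triple mutant over WT they were 66.7% of the higher and 42.9% of the lower 5' bins in the dark and 46.8% and 66.7% in red light, and for light in WT 2 of 3 higher and 4 of 12 lower 5' bins. For 3' bins in swap1 over WT the shares were 57.0% of the higher and 63.6% of the lower in red light and 59.4% and 45.5% in the dark, and for light 7 of 7 higher and 2 of 5 lower 3' bins in WT and all 10 in swap1. In the triple mutant over WT they were 58.9% and 60.6% in red light and 59.4% and 52.6% in the dark. Over all distinct bins, 82 of 154 bins of 5' sites lay in coding sequence, 52 in the 5' UTR and 3 in the 3' UTR, and 128, 53 and 11 of 213 bins of 3' sites.

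Lengths differed between the kinds in their short classes, although both had a median of 27 bases. A length of 4 bases was the most common among 5' bins, 22 of 154 (14.3%), beside 4.22% of the 4264 alternative donor pairs in the annotation. Below a length of 100 bases these shares were 17.1% of the called bins and 9.71% of the annotated pairs. A length of 3 bases was the most common among 3' bins, 19 of 213 (8.92%), beside 13.1% of the 4976 annotated acceptor pairs. A length divisible by 3 was found in 33.1% of 5' bins (annotated 40.7%) and in 47.9% of 3' bins (annotated 49.7%). In swap1 over WT in red light, 12 of the 64 higher 5' bins were 4 bases long, and 2 of the 17 lower ones.

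**Figure D5:**
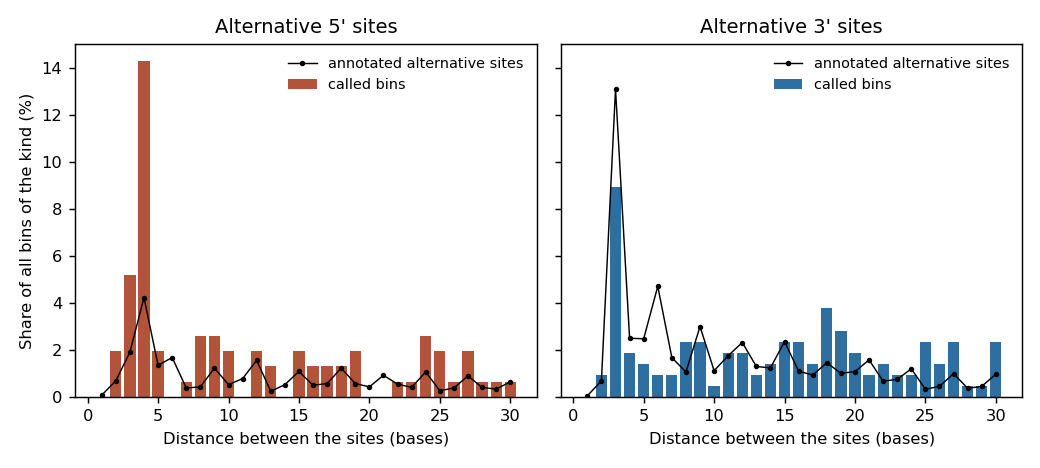
Share of bins at each distance between the sites from 1 to 30 bases, for 5' sites (left) and 3' sites (right), with called bins as bars and all alternative sites in the annotation as black points. At 4 bases the called 5' bins stand at 14.3% and the annotated ones at 4.22%, and at 3 bases the called 3' bins at 8.92% and the annotated ones at 13.1%.

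The sites had the usual dinucleotides. Both donors were GT in 137 of 154 bins, with GC at the upstream donor in 10 and at the downstream donor in 6, and 1 bin had AT upstream. Both acceptors were AG in 209 of 213 bins. Donors were scored by how many of 9 positions (the last 3 of the exon, the first 6 of the intron) match CAGGTAAGT on the gene's strand. The upstream donor matched 5.62 ± 1.18 (SD over 154 bins) and the downstream donor 4.64 ± 1.35, beside 5.65 and 5.18 over the annotated pairs. The upstream donor matched better in 101 bins (65.6%) beside 50.1% of the annotated pairs. For the acceptors, the pyrimidine share of the 17 bases from 20 to 4 before the end of the intron was 58.9% upstream and 58.0% downstream, beside 60.8% and 57.9% in the annotation. The upstream acceptor had the higher share in 45.1% of the called bins beside 53.3% of the annotated pairs. Below a length of 100 bases these were 46.1% and 59.6%. The differences were not tested.

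Junction signals of the kind given for these regions were found at 3' sites more than at 5' sites. One was called in the same row for 34 of 489 regions of 3' sites (6.95%, 15 distinct bins) and for 1 of 281 regions of 5' sites (0.356%), AT2G37840, named because it is the only one. Over the called bins of all classes 42 of 33404 (0.126%) had such a signal, 35 of which are members. The other 7 were among 2877 other exon bins (0.243%), and 0 of 29757 intron bins had one. This holds for that kind of signal only: with any signal beside that of the bin counted, 473 intron bins, 86 other exon bins and 35 members had one. The deposited change in participation of the junctions is a difference of fractions without a sign, and was between 0.309 and 0.771 for the 3' regions. GSTZ1, the zeta glutathione transferase of tyrosine breakdown, had the largest, at 0.695, 0.707, 0.771 and 0.764 in the 4 comparisons of a mutant with WT in the authors' deposited tables. Its bin of 21 bases was at 1.51, 1.51, 1.57 and 1.53 in the authors' deposited tables. For HBP5 the change in participation was 0.468, 0.512, 0.515 and 0.568, and for HCF109 0.391, 0.422, 0.536 and 0.500, in the authors' deposited tables. GSTZ1 was chosen for this readout after its values were seen.

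Transcript levels, which the rule did not use, gave a second readout of the same libraries in the 4 comparisons of WT and swap1. A transcript that contains the whole bin as exon was called by the authors with DESeq2 in 216 cases, where a bin counts once in each comparison that called it. In 205 of them (94.9%) the bin and the transcript had the same direction. The like share for called transcripts without the bin was not computed, so 94.9% has no background. Some transcripts without the bin had its direction and others the opposite one. The cases are not independent, since bins recur, comparisons share libraries, and reads of a bin can also count for its transcript. The shares were 89 of 95 for 5' bins and 116 of 121 for 3' bins. Where transcripts with and without the bin were both called, the transcript with the bin moved further in the direction of the bin in 16 of 22 cases. The bin is measured relative to its gene and the transcript is not, so a change of the whole gene can move the transcript alone. How reads shared by transcripts of a gene were assigned is not given in the sources used here.

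The transcripts allow a test of the difference between comparisons, from the deposited standard errors (SE) and adjusted over all transcripts called in both. Light in swap1 differed from light in WT for 1233 of 4679 transcripts (26.4%), and for 9 of 20 transcripts that contain a member bin. For LHY the transcript AT1G01060.5 was at -2.42 (SE 0.24) in WT and -1.35 (SE 0.30) in swap1 in the authors' deposited tables (BH p = 0.0219 for the difference). Swap1 over WT differed between dark and red light for 273 of 2170 transcripts (12.6%), and for 5 of 49 with a member bin. The difference tested here is the same contrast of the WT and swap1 groups as for light, over another set of called transcripts. AT1G18070.3 was at 3.32 (SE 0.15) in the dark and 2.48 (SE 0.19) in red light in the authors' deposited tables (BH p = 0.00569), and SKIP transcript AT1G77180.2 at 1.28 (SE 0.10) and 0.83 (SE 0.11) (BH p = 0.0253). GSTZ1 transcript AT2G02390.3, at 2.44 (SE 0.11) and 2.53 (SE 0.11) in the authors' deposited tables, did not pass this test (BH p = 0.874).

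Members were found in loci of the lists for SR proteins, other splicing factors and clock genes and in none for light signalling. Over all loci with a called bin, 333 of 8369 (3.98%) held an alternative splice site bin. Of 20 genes for SR proteins 18 held a called bin, and 3 of these (16.7%) held a member. SR34, the homologue of human SRSF1, was at 0.53, 0.51 and 0.56 in swap1 over WT (dark, red light) and in the triple mutant over WT in the dark, RS2Z32 was at 0.45 in the latter, and RS31a was at -0.34 and -0.29 over WT in red light, in the authors' deposited tables. All of these are below the fold of 1.5 named in the table headers. Of 23 other splicing factors 16 held a called bin, and 3 of these (18.8%) held a member. SKIP, which acts in splicing, that of clock genes included, was at 0.89, 0.91, 0.98 and 0.80 over WT at a 3' bin in the 5' UTR in the authors' deposited tables. PTB3, a polypyrimidine tract-binding protein, was at 0.93 and 0.87 over WT in red light, and ATU2AF65A, the large subunit of U2AF, at 0.21 in swap1 over WT in red light in the authors' deposited tables. The value of ATU2AF65A is also below that fold. Its transcript AT4G36690.2, which contains the bin, had the opposite direction in the same comparison, at -1.72 in the authors' deposited table. Of 35 light signalling genes 0 held a member, although 17 held a called bin of some class, and of 23 clock genes 14 held a called bin and LHY alone a member.

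Values near the thresholds of the authors' calls were as follows. The highest FDR of a member was 0.0497 in the authors' deposited tables, under header thresholds of 0.03 where the triple mutant is compared and 0.05 elsewhere. The headers name a bin fold of 1.5 (0.58 on the log2 scale), yet 79 of the 770 members were below it, down to an absolute value of 0.19 in the authors' deposited tables. Bins outside the thresholds were not analysed here. For 137 of the 770 regions the tables name an overlapping locus, and reads of that locus cannot be told apart from those of the bin where the counting used no strand.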

How the data were processed

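The authors' tables hold results of comparisons between groups of 3 libraries and no value per library. Per the submitters' processing notes, reads were processed with FastQC, STAR, HTSeq and DESeq2 on the build TAIR10. ASpli 2.0 is named in the design text of the series, and no other version is given in the sources used here. Per the file headers, the deposited bin fold changes are on the log2 scale with an FDR (an adjusted p-value), and the junction change is a difference of fractions without a sign. The authors' 4 expression tables give a log2 fold change, its SE and an adjusted p-value per transcript. No source used here gives the strand setting of the counting.

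The members and gene lists were chosen with earlier results of these data known. Members were rows with an event of Alt5ss, Alt5ss*, Alt3ss or Alt3ss*. Named bins were the 2 largest absolute changes per comparison and kind (1 per locus), the 6 bins of each kind called in most comparisons, and members in the gene lists, 39 bins in 37 loci. Where a bin outside this rule is named, the text says so. AT3G02360, VPS28-2, EIF3C and GLX1 also fall outside it and are named only because their transcripts were flagged in the closing section.

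The headers do not say which group is the numerator. Over 49 bins called in the 4 tables of WT and swap1, the loop of fold changes closed to a median of 0.001 as second over first group and 3.62 with the genotype tables turned. The expression tables between genotypes had to be turned (0.00302 and 0.628 over 535 transcripts). LHCA1 was at 5.43 for light in WT, as red light over dark, in the authors' deposited table. In the authors' deposited table of the dark, SWAP1 exon bins were at -0.92 and -1.08 in swap1 over WT. No such loop exists for the tables with the triple mutant. They were read as second over first group like the others, and the same SWAP1 exon bins were at -0.87 and -0.81 over WT in the dark, and at -0.88 and -0.93 over sfpsrrc1, in the authors' deposited tables.

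The reference was the RefSeq annotation of TAIR10.1: 366 of 367 bins lay inside their gene, and 149 of 154 and 192 of 213 had both sites annotated. Annotated alternative sites were neighbouring ends of introns that share the other end. Of the called bins, 113 of 154 and 162 of 213 were themselves among these pairs. The others lie outside the set that lengths and site scores were compared with. To compare 2 transcript fold changes, their difference over its SE (the root of the sum of both squared SE) was set against a normal distribution, two-sided, and the p-values were adjusted after Benjamini and Hochberg (BH, threshold 0.05). This step was tested on simulated data. Python 3.11.15, pandas 2.3.3, numpy 2.4.6, scipy 1.17.1 and matplotlib 3.10.9 were used. Alternatives were stricter FDR and fold thresholds, events without an asterisk, annotated sites, loci counted once, junction support, and, chosen after seeing the data, leaving out bins beside a called intron, overlapping loci and SWAP1.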

Additional observations from a re-analysis of the deposited data

Results flagged for a closer look

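Transcripts that contain a member bin were flagged where the tested difference between comparisons without a shared library passed the threshold and the directions were opposite. This test was chosen after seeing the data. Only transcripts called in both comparisons were tested, and called changes of opposite direction differ almost by construction. Every tested transcript with a member bin and opposite directions passed. For the flagged transcripts the BH p therefore adds little to the authors' calls, and the flag rests on the opposite directions. Values are log2 fold changes from the authors' deposited tables with their SE, and each BH p is for the difference, adjusted over all transcripts called in both comparisons, of which 26.4% differed for light and 12.6% for genotype. These shares do not ask for opposite directions. The share of all transcripts that meets both conditions was not computed, so the number flagged has no like background.

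For light, 7 transcripts were lower in red light in WT and higher in swap1. AT3G02360.2, of a 6-phosphogluconate dehydrogenase of the pentose phosphate pathway, was at -2.08 (SE 0.78) in WT and 3.68 (SE 0.36) in swap1 in the authors' deposited tables, a difference of 5.75 (BH p = 7.19e-10). Its 5' bin was at 0.94 for light in swap1 in the authors' deposited table and was not called in WT. QQT2 transcript AT4G21800.2 went from -1.77 (SE 0.68) to 2.11 (SE 0.45) in the authors' deposited tables, a difference of 3.89 (BH p = 2.87e-05). AIRP1 transcript AT4G23450.3 was at -1.34 (SE 0.45) and 1.70 (SE 0.37) in the authors' deposited tables, a difference of 3.04 (BH p = 4.14e-06). AT4G05000.1 of VPS28-2, a subunit of the endosomal sorting complex, was at -1.40 (SE 0.37) and 1.51 (SE 0.24) in the authors' deposited tables, a difference of 2.91 (BH p = 1.35e-09). AT3G26020.2 differed by 2.25 (BH p = 2.38e-07), from -1.45 (SE 0.28) to 0.80 (SE 0.27) in the authors' deposited tables. MSL2 transcript AT5G10490.3 differed by 2.04 (BH p = 1.71e-05), from -0.85 (SE 0.32) to 1.19 (SE 0.27) in the authors' deposited tables. AT3G56150.2 of EIF3C, a subunit of a translation initiation factor and the only one of the 7 with a 3' bin, differed by 1.58 (BH p = 7.35e-07), from -0.91 (SE 0.22) to 0.67 (SE 0.18) in the authors' deposited tables.

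Between genotypes, AT3G26020.2 was at -0.74 (SE 0.29) in the dark and 1.51 (SE 0.26) in red light in the authors' deposited tables, a difference of 2.25 (BH p = 2.31e-07). The difference between genotypes is the same contrast of the WT and swap1 groups as the difference for light. For AT3G26020.2 it therefore repeats the light result and is not a second one. GLX1 transcript AT1G11840.3, of a glyoxalase family protein, was at -1.87 (SE 0.72) and 1.28 (SE 0.34) in the authors' deposited tables, a difference of 3.15 (BH p = 0.00122). It contains the 5' bin E006 of GLX1, which the authors' deposited table has at 0.96 under red light and which was not called in the dark.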

How the results depend on the processing

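Of 385 recomputed counts, shares, ratios and direction values, 339 stayed in their range and 46 moved. A share that went from mostly higher to mostly lower was also counted as moved, so reversals were not counted apart. With a junction signal required, the share of 5' bins higher for the triple mutant over WT in red light went from 80.5% to 0%. That value rests on 1 bin. An FDR of at most 0.03, a log2 fold of at least 0.58, both sites annotated, loci counted once and leaving out SWAP1 moved none of theirs. Some of these could not move a value. Tables with the triple mutant already had an FDR threshold of 0.03, no light member lay below the fold, and SWAP1 was in no light list. Ranges were wide for small lists, such as 30.1% to 95.4% for the 4 dark 5' bins of the triple mutant over sfpsrrc1. No paired analysis was possible because the files hold no values per library, and leaving out single libraries could not be run for the same reason. Depth per library is unknown, so sites in weakly expressed genes may be missed, and the cause of the moves below was not tested beyond the loss of bins that each setting brings.

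With a junction signal required, 5' bins numbered 0 in each comparison except 1 for the triple mutant over WT in red light (0% higher, ratio of 3' to 5' bins 9.0). The 3' bins then numbered 0 for light in WT and in swap1, 5 and 9 for swap1 over WT in darkness and red light (88.9% higher in red light), 10 and 9 for the triple mutant over WT (88.9% higher in red light), and 0 and 1 over sfpsrrc1 (100% higher).

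Without bins beside an intron called in the same direction, 5' bins numbered 9 for light in WT, 22 for light in swap1, 17 and 44 for swap1 over WT in darkness and red light, and 35 for the triple mutant over WT in red light. The share of 5' bins higher was then 11.8% and 63.6% for swap1 over WT and 30.8% and 60% for the triple mutant over WT. The ratios in red light were 2.14 and 2.97, and 3' bins for light in swap1 numbered 6, with 16.7% higher.

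At an FDR of at most 0.01, 3' bins numbered 7 for light in WT and 5 for the triple mutant over sfpsrrc1 in red light (100% higher), and 5' bins 21 for light in swap1 and 15 for swap1 over WT in the dark. Without asterisked events, 3' bins for light in swap1 numbered 5, those of swap1 over WT in the dark were 92.6% higher, and 5' bins over sfpsrrc1 in the dark numbered 2. Without overlapping loci, the triple mutant over sfpsrrc1 had 2 bins of 5' sites in the dark (100% higher), 5' bins 100% higher in red light, and 5 bins of 3' sites in red light.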
